A study of Homo sapiens with 9 samples.

Results

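The genes described here encode immunoglobulin chains and their close relatives. They were chosen by symbol: IGHM and IGHD (heavy chain constant regions), IGKC (kappa constant region), IGLC1, IGLC2 and IGLC3 (lambda constant regions), IGLL1, IGLL5 and VPREB3 (surrogate light chain genes and relatives) and JCHAIN. All 10 have a row in the table of 16586 genes, and all 10 passed the filter on low values. RNA-seq was run on Z138, an established human mantle cell lymphoma line that the labels describe as lymphoblast, in 3 states with 3 libraries each. The rescue carries the SOX11 knockout with SOX11 put back, the knockout carries the SOX11 knockout alone, and the wild type is unedited Z138. SOX11 is a transcription factor typical of mantle cell lymphoma, so the comparisons ask what its loss and its return do to transcript levels. Replicates 1, 2 and 3 of each group belong to batches 1, 2 and 3. It is not given whether the replicates came from separate cultures or whether either edited line is 1 clone. Hence the p-values cover no more than the spread between the 9 libraries, and a difference between clones cannot be told apart from an effect of SOX11.

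A B cell makes an antibody from heavy chains and from light chains of either the kappa or the lambda kind, and the constant gene that follows the joined segments decides the class. In precursor B cells, which have not yet joined a light chain gene, IGLL1 and VPREB1 together form a surrogate light chain that pairs with the mu heavy chain. JCHAIN is the joining chain that links IgM or IgA units into polymers, and it is best known from antibody-secreting cells.

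The lambda constant genes lie side by side on chromosome 22 and differ at few bases, which bears on every value given for them below. The coding part of the constant exon, 317 bases long, is shown for the lambda rows, read from GENCODE release 29 transcripts on GRCh38. It lies at chr22:22895375-22895691 on the plus strand in IGLC1 and at the same place in IGLL5, whose last exon it is, with 0 differences. It lies at chr22:22900976-22901292 (plus) in IGLC2 and at chr22:22906342-22906658 (plus) in IGLC3. The first 280 bases are printed for each. Capitals mark the bases that differ from IGLC1.

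IGLC1 and IGLL5: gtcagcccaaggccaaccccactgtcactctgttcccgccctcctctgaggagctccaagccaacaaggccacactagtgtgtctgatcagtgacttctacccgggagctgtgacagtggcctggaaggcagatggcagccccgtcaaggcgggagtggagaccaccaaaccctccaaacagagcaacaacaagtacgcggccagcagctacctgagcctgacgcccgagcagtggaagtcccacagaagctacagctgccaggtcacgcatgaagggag
IGLC2: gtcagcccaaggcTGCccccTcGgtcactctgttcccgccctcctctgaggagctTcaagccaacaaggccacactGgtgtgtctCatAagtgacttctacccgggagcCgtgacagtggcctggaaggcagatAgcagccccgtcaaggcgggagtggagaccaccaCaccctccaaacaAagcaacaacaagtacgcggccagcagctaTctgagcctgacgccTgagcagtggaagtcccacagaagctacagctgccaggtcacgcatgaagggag
IGLC3: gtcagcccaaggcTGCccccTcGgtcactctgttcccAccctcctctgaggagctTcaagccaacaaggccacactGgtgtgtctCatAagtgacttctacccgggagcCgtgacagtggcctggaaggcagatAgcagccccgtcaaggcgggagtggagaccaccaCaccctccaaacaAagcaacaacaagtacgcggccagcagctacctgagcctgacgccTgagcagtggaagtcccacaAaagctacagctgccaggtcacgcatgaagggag

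Over the 317 bases IGLC2 differed from IGLC1 at 15 bases (95.3% identity) and IGLC3 at 16. IGLC2 and IGLC3 differed from each other at 3 bases (99.1%): counted from 1 at the first base shown, C212T belongs to IGLC2 alone, and G38A and G247A to IGLC3 alone. The submitters' notes name kallisto, a tool that assigns reads by short words of the transcript sequence, so words of 31 letters were compared over whole transcripts. Of the 430 words of IGLC1, 0 were unique to it and all were also in IGLL5. For IGLC2, 17.6% of words were found in no other gene of the annotation and 71.3% were also in IGLC3, and for IGLC3 16.9% were unique. IGLL5 had 60.8% unique words and IGLL1 79.6%. The words of IGHM, IGHD, IGKC and VPREB3 were all unique, as were 95.3% of those of JCHAIN. The division of reads between IGLC1 and IGLL5, and between IGLC2 and IGLC3, is thus uncertain, and their sums are given beside the single genes. The pairs also share words with each other: 17.0% of the words of IGLC1 were in IGLC2 and 15.1% in IGLC3.

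**Figure D1:**
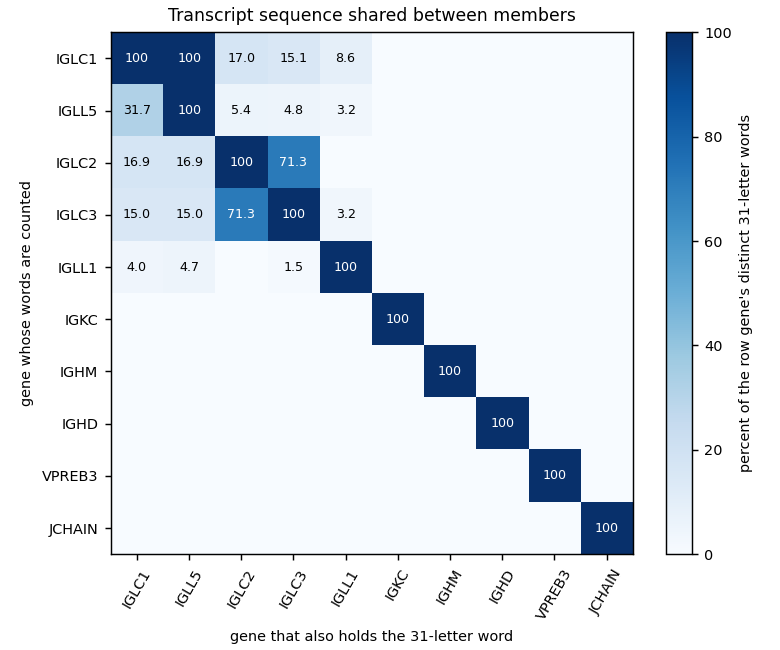
Share of each gene's distinct 31-letter transcript words (rows) that another member also holds (columns), in percent. All words of IGLC1 are in IGLL5, IGLC2 and IGLC3 share 71.3%, and IGHM, IGHD, IGKC, VPREB3 and JCHAIN share none with another member. Of the words of IGLC1, 17.0% are in IGLC2 and 15.1% in IGLC3.

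The deposited values are variance-stabilized log2 values, a log2 scale on which low genes are compressed. They were turned back into normalized counts, which are read counts put on a common depth. The estimated depth was 30758700 to 40812000 reads per library, and the correlation of the log2 values between libraries of a group was 0.992 to 0.997. SOX11 averaged 13127 ± 627 normalized counts in the rescue, 1033 ± 262 in the knockout and 3549 ± 474 in the wild type (SD, n = 3 each), so it was lowest in the knockout and the rescue stood 3.70-fold above the wild type. The labels do not say which part of the gene was altered, and transcripts were still measured in the knockout. The B cell markers MS4A1, CD79A, CD79B, CD22 and PAX5 were measured in every library, MS4A1 at 18541 to 23423 and CD79A at 7807 to 9775.5 normalized counts, and CCND1, the cyclin that defines mantle cell lymphoma, had 106410 to 136858.

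Together the 10 members took 0.753% to 0.896% of all normalized counts in a library. IGHM averaged 112530 normalized counts over the 9 libraries, rank 15 of all genes, followed by JCHAIN with 71718 (rank 38) and IGLC1 with 33047 (rank 128). VPREB3, with 899, was the lowest member (rank 6404). Transcripts differ in length, so levels between genes were compared per kilobase of the longest annotated transcript. On that scale IGLC1 had 58581 normalized counts per kilobase in the rescue, 89265 in the knockout and 67677 in the wild type, and IGHM had 64762, 65546 and 69922 in the same order of groups. Among the single rows IGHM thus led in the rescue and the wild type, and IGLC1 in the knockout. That order depends on how reads were divided between IGLC1 and IGLL5, whose longest transcripts have 460 and 1335 bases. Their sum, given below in normalized counts, has no single length and was not ranked. The places of the other lambda rows that follow carry the same limit. JCHAIN came next in every group, with 42879 in the rescue, 61111 in the knockout and 45630.0 in the wild type. IGKC (28307 to 30591 over the group means), IGLC2 (22194 to 29051) and IGLL1 (19837 to 24567) followed, in that order in every group. IGLC3 had 9871 in the rescue, 7520.3 in the knockout and 8946 in the wild type, and IGLL5 had 7114, 10428 and 8178, so IGLL5 stood above IGLC3 in the knockout and below it in the other groups. IGHD (2654 to 2719) and VPREB3 (1251 to 1678) were lowest in every group.

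**Figure D2:**
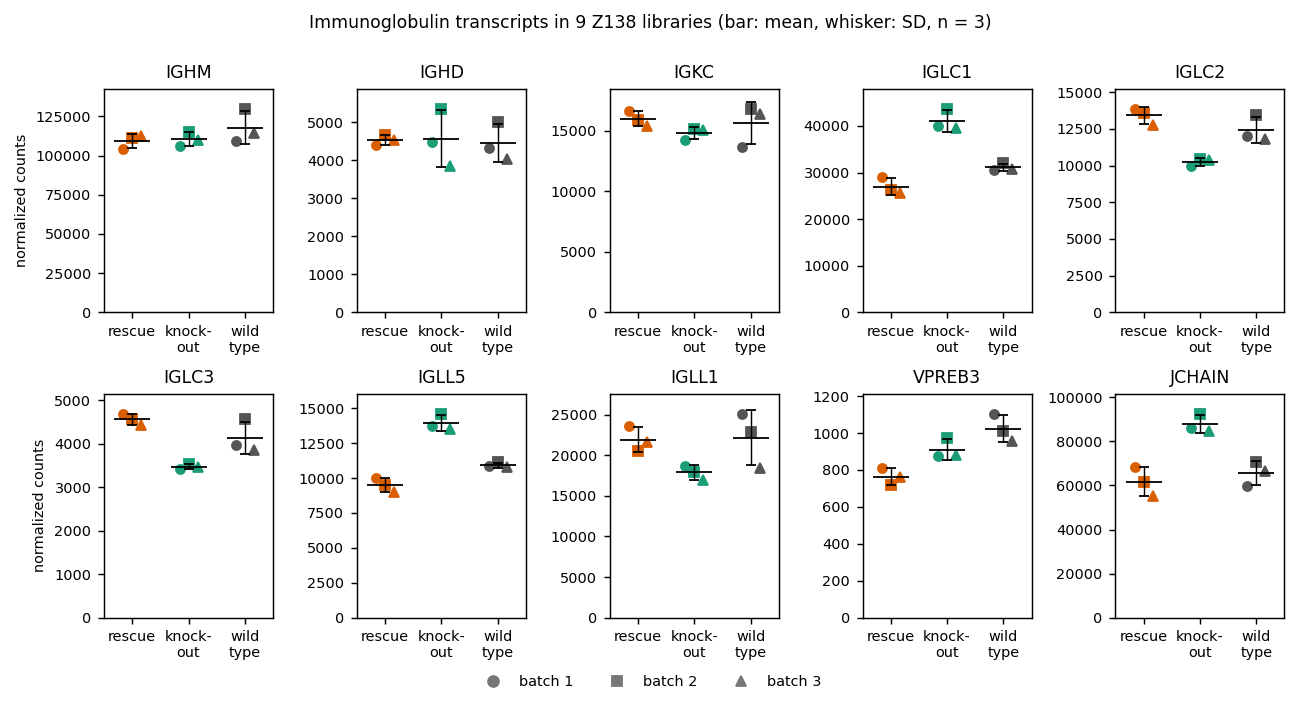
Normalized counts of the 10 members in each library (points; marker shape gives the batch), with the mean (bar) and SD (whisker) of 3 libraries per group. Every axis starts at 0. IGLC1, IGLL5 and JCHAIN are highest in the knockout and IGLC2 and IGLC3 lowest there, while the groups overlap for IGHM and IGHD.

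In bulk RNA fewer cells that express a gene and less of its RNA per cell cannot be told apart, which holds for every difference below. Differences were tested with limma on the log2 values of 11542 genes with Benjamini-Hochberg adjustment, and called at an adjusted p under 0.05. In the knockout against the wild type 3 of 10 members rose and 2 fell, where 12.7% of all genes tested were called, 5.36% as higher and 7.37% as lower. In the rescue against the knockout 2 members rose and 3 fell, where 22.1% of all genes tested were called, 11.5% as higher and 10.7% as lower. In the rescue against the wild type 1 member fell and 0 rose, where 4.07% of all genes tested were called, 2.3% as higher and 1.78% as lower. The libraries of both groups did not overlap for 5 members in the knockout against the wild type (29.5% of all genes tested), for 8 in the rescue against the knockout (41.8%) and for 3 in the rescue against the wild type (20.8%). With the batch as a block, a paired alternative, 6 members were called in the knockout against the wild type (21.5% of all genes tested), 6 in the rescue against the knockout (31.2%) and 3 in the rescue against the wild type (8.06%). Genes that share reads do not count separately: with IGLC1 and IGLL5 as 1 sum and IGLC2 and IGLC3 as another, a grouping chosen after the data were seen, 3 of 8 were called in each of the first pair of comparisons. The median log2 difference over the 10 members was -0.08 in the knockout against the wild type, -0.01 in the rescue against the knockout and -0.05 in the rescue against the wild type. Over all genes tested these medians were 0.00, -0.01 and 0.00. The first pair of comparisons share the knockout libraries, so their values stand side by side below and are not independent of each other.

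The heavy chain transcripts showed no difference that passed the test. IGHM, at chr14:105851705-105856218 on the minus strand, is the mu constant gene, used by IgM and by the pre-B receptor. It had 104248, 110955 and 112364 normalized counts in the rescue, 106254, 115122 and 110154 in the knockout, and 109320, 129758 and 114589 in the wild type. The highest value was in the wild type of batch 2, and the ranges of all 3 groups overlapped. The log2 difference was -0.09 in the knockout against the wild type (95% interval -0.24 to 0.06; limma adjusted p = 0.465), -0.02 in the rescue against the knockout (-0.17 to 0.14; adjusted p = 0.893) and -0.11 in the rescue against the wild type (-0.26 to 0.05; adjusted p = 0.500).

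IGHD, at chr14:105836765-105845678 on the minus strand just downstream of IGHM, is the delta constant gene, which naive B cells co-express with mu by alternative splicing of a shared transcript. It had 4401, 4650.5 and 4537 normalized counts in the rescue, 4481, 5347 and 3859 in the knockout, and 4330.3, 4999.9 and 4029.6 in the wild type. The knockout held both the highest and the lowest of the 9 values, and the other groups lay inside its range. The log2 difference was 0.02 in the knockout against the wild type (95% interval -0.18 to 0.23; adjusted p = 0.905) and 0.00 in the rescue against the knockout (-0.21 to 0.21; adjusted p = 0.999). It was 0.03 in the rescue against the wild type (-0.18 to 0.23; adjusted p = 0.934). The sign for IGHD depended on the libraries kept, and so did that for IGHM in the rescue against the knockout.

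IGKC, the only kappa constant gene, lies at chr2:88857161-88857683 on the minus strand. It had 16662, 15932 and 15402.5 normalized counts in the rescue, 14236, 15125 and 15053 in the knockout, and 13642, 16814 and 16427 in the wild type. The rescue lay wholly above the knockout, and the wild type spanned both. The log2 difference was -0.07 in the knockout against the wild type (95% interval -0.23 to 0.09; adjusted p = 0.601), 0.11 in the rescue against the knockout (-0.05 to 0.26; adjusted p = 0.332) and 0.04 in the rescue against the wild type (-0.12 to 0.20; adjusted p = 0.860). Kappa transcripts were thus measured in every library. The kappa variable row with the highest mean, IGKV4-1, averaged 17.9 normalized counts over the 9 libraries. Whether the kappa transcripts carried a joined variable segment was not tested.

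The lambda constant rows moved in opposite directions as pairs, the pairs being IGLC1 with IGLL5 and IGLC2 with IGLC3. IGLC1, at chr22:22895375-22895834 on the plus strand, had 28975, 26191 and 25676 normalized counts in the rescue, 40038, 43650.1 and 39497 in the knockout, and 30589, 32024 and 30781 in the wild type. The knockout stood apart above the wild type, and the wild type above the rescue, with no overlap. IGLC1 rose 1.32-fold in the knockout against the wild type (log2 difference 0.39, SE 0.06, adjusted p = 0.00129; higher in 3 of 3 batches). It fell 1.52-fold in the rescue against the knockout (log2 difference -0.59, SE 0.06, adjusted p = 4.23e-05; lower in 3 of 3 batches).

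IGLL5, at chr22:22887780-22896107 on the plus strand, is named for its likeness to the surrogate light chain gene IGLL1, but its last exon is that of IGLC1. It had 10011, 9494 and 8987 normalized counts in the rescue, 13708, 14575 and 13483 in the knockout, and 10844, 11118 and 10792 in the wild type. Its groups stood in the order of those of IGLC1, with no overlap. IGLL5 rose 1.28-fold in the knockout against the wild type (log2 difference 0.33, SE 0.05, adjusted p = 0.00148) and fell 1.47-fold in the rescue against the knockout (log2 difference -0.52, SE 0.05, adjusted p = 3.90e-05).

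IGLC2, at chr22:22900976-22901437 on the plus strand, went the other way. It had 13863, 13604 and 12798 normalized counts in the rescue, 9970.5, 10423 and 10367 in the knockout, and 12024, 13445 and 11796 in the wild type. All knockout values lay below those of both other groups, which overlapped. IGLC2 fell 1.21-fold in the knockout against the wild type (log2 difference -0.26, SE 0.06, adjusted p = 0.0119) and rose 1.31-fold in the rescue against the knockout (log2 difference 0.36, SE 0.06, adjusted p = 0.000934). The call against the wild type was lost without batch 1, batch 3 or knockout replicate 1, with an adjusted p of up to 0.127.

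IGLC3, at chr22:22906342-22906803 on the plus strand, had 4680, 4565 and 4437 normalized counts in the rescue, 3414, 3540.4 and 3469 in the knockout, and 3980, 4557 and 3862 in the wild type. As for IGLC2, the knockout lay below both other groups. IGLC3 fell 1.19-fold in the knockout against the wild type (log2 difference -0.21, SE 0.06, adjusted p = 0.0356) and rose 1.31-fold in the rescue against the knockout (log2 difference 0.33, SE 0.06, adjusted p = 0.00178). The first of these calls was lost in 10 of the 12 fits that left out a library or a batch, all but those without rescue replicate 1 or wild type replicate 3, with an adjusted p of up to 0.215, and also when only the libraries of those groups were fitted (adjusted p = 0.0749). The second was lost without batch 1 (adjusted p = 0.0540).

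Summing the rows that share reads gave values that do not depend on how reads were divided within a pair. The sum of IGLC1 and IGLL5 averaged 36445 ± 2259 normalized counts in the rescue, 54984 ± 2833 in the knockout and 42049 ± 949 in the wild type (SD, n = 3 each). Its log2 difference was 0.38 in the knockout against the wild type (adjusted p = 0.00137) and -0.58 in the rescue against the knockout (adjusted p = 4.28e-05). The sum of IGLC2 and IGLC3 averaged 17982 ± 673 in the rescue, 13728 ± 304 in the knockout and 16554.5 ± 1265 in the wild type. Its log2 difference was -0.25 in the knockout against the wild type (adjusted p = 0.0140) and 0.37 in the rescue against the knockout (adjusted p = 0.000936). The opposite directions of the pairs were therefore present in the sums as well as in the single rows. Because the pairs also share words with each other, these sums can still depend on how reads were divided between the pairs, which was not tested.

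The sum of all 4 lambda rows was 57528.5, 53853 and 51899 normalized counts in the rescue, 67131, 72188 and 66815 in the knockout, and 57436, 61144 and 57231.5 in the wild type. The knockout lay above both other groups, which overlapped. The lambda sum rose 1.17-fold in the knockout against the wild type (log2 difference 0.23, SE 0.06, adjusted p = 0.0257) and fell 1.26-fold in the rescue against the knockout (log2 difference -0.33, SE 0.06, adjusted p = 0.00195). An exact two-sided permutation test of the sum gave p = 0.1 for each, the smallest that 3 against 3 libraries allow. The call against the wild type was lost with only those groups fitted (adjusted p = 0.0542), without batch 1, 2 or 3, without knockout replicate 1 or 2 and without wild type replicate 1 or 3 (adjusted p 0.0166 to 0.173 over the 12 fits that left out a library or a batch). Between the rescue and the wild type the sum differed by -0.11 on the log2 scale (95% interval -0.23 to 0.02; adjusted p = 0.412).

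**Figure D3:**
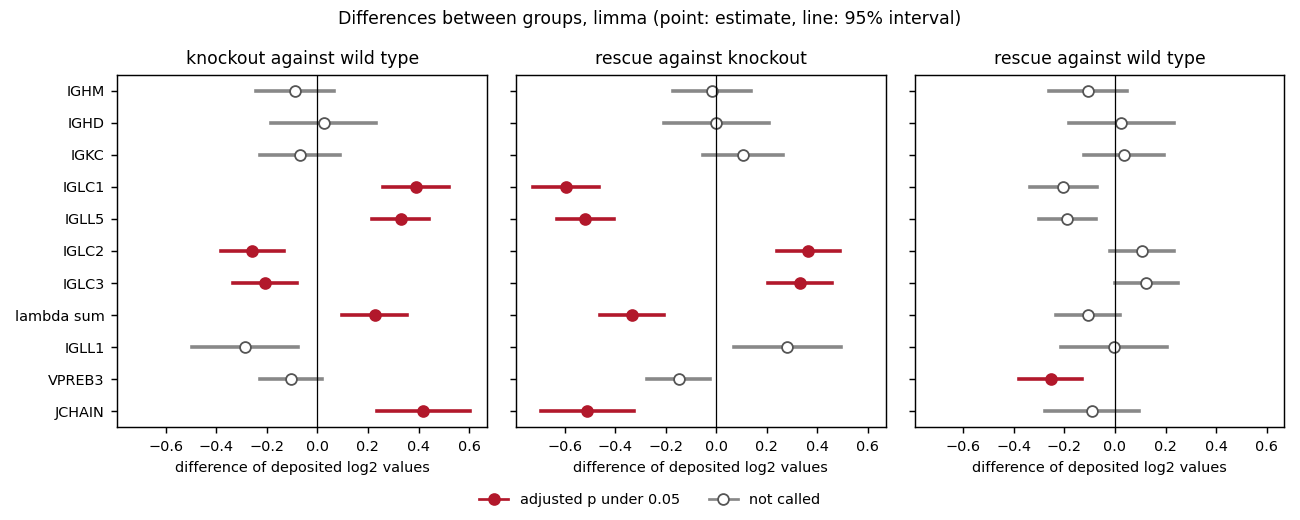
Log2 differences between groups (point) with 95% intervals (line) from limma, for each member and for the sum of the 4 lambda rows. Filled points passed an adjusted p of 0.05. In both comparisons with the knockout IGLC1 and IGLL5 lie on the opposite side of 0 from IGLC2 and IGLC3, with IGLC1 at 0.39 and IGLC2 at -0.26 in the knockout against the wild type.

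Shares within a library do not depend on how it was scaled, so the makeup of the lambda transcripts was compared in that form. IGLC1 made up 49.5% ± 0.866 of the lambda sum in the rescue, 59.7% ± 0.682 in the knockout and 53.1% ± 0.712 in the wild type (SD, n = 3 each). IGLC2 made up 24.7% ± 0.582 in the rescue, 14.9% ± 0.543 in the knockout and 21.2% ± 0.721 in the wild type. The share of IGLC2 in the knockout was thus 9.74 points below the rescue and 6.24 points below the wild type.

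IGLC3 held 8.39% in the rescue, 5.06% in the knockout and 7.04% in the wild type, and IGLL5 held 17.4%, 20.3% and 18.6% in the same order of groups. Kappa made up 22.7% ± 0.232 of kappa plus lambda in the rescue, 17.7% ± 0.571 in the knockout and 21.0% ± 1.63 in the wild type. For each of the 5 shares the groups did not overlap in any of the 3 comparisons. All 15 exact permutation tests gave p = 0.1 (adjusted over the 15, 0.1), the smallest value possible here, so none could pass 0.05.

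**Figure D4:**
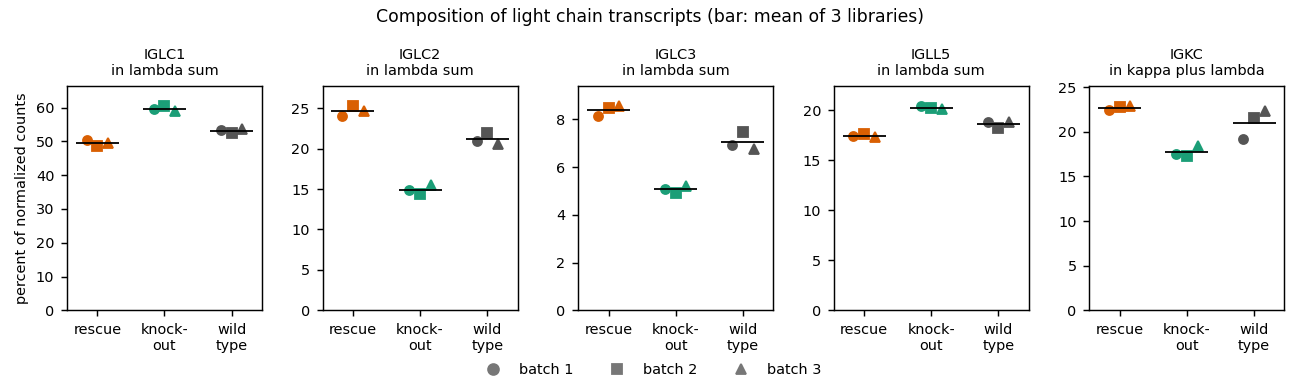
Share of each lambda row in the lambda sum, and of IGKC in kappa plus lambda, in percent of normalized counts, per library (points; marker shape gives the batch) with the group mean (bar). IGLC1 holds 59.7% of the lambda sum in the knockout, against 49.5% in the rescue and 53.1% in the wild type, and IGLC2 is lowest in the knockout at 14.9%.

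The surrogate light chain genes were measured at very different levels. IGLL1, also called lambda 5, lies at chr22:23573125-23580308 on the minus strand. It had 23600.5, 20515 and 21626 normalized counts in the rescue, 18722, 17941 and 16956 in the knockout, and 25055, 22908.5 and 18442 in the wild type. The rescue lay above the knockout without overlap, while wild type replicate 3 fell inside the range of the knockout. The log2 difference was -0.29 in the knockout against the wild type (95% interval -0.50 to -0.08), which missed the threshold (adjusted p = 0.0739) but passed it with the batch as a block (adjusted p = 0.0114). For the rescue against the knockout it was 0.28 (95% interval 0.07 to 0.49; adjusted p = 0.0559), and 0.00836 was the adjusted p with the block. Without wild type replicate 3 both differences were called, and the second was called as well without wild type replicate 1, with only those groups fitted, on log2(CPM + 1) and after quantile normalization. The rescue and the wild type differed by -0.01 (95% interval -0.22 to 0.20; adjusted p = 0.988), a value whose sign depended on the scaling and on the libraries kept.

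VPREB3, at chr22:23752743-23754468 on the minus strand, is a relative of VPREB1 found in B cells and their precursors. It had 808, 718 and 763 normalized counts in the rescue, 873, 975 and 880.4 in the knockout, and 1102, 1008.5 and 959 in the wild type. The rescue was lowest, without overlap with either other group, and the knockout overlapped the wild type. VPREB3 fell 1.34-fold in the rescue against the wild type (log2 difference -0.25, SE 0.06, adjusted p = 0.0289; lower in 3 of 3 batches). That call was lost without each rescue library, without wild type replicate 1 or 2 and without each batch, with an adjusted p of up to 0.229, and with only those groups fitted (adjusted p = 0.0662). The log2 difference was -0.11 in the knockout against the wild type (95% interval -0.23 to 0.02; adjusted p = 0.269) and -0.15 in the rescue against the knockout (-0.27 to -0.03; adjusted p = 0.0830).

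VPREB1, the usual partner of IGLL1, was nearly unmeasured, with 0.930 to 3.20 normalized counts in the rescue, 1.15 to 6.15 in the knockout and 0.865 to 2.12 in the wild type. IGLL1 was thus abundant in libraries in which the other chain of the surrogate light chain was not, and VPREB1 fell below the filter for testing.

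Of the remaining members in the rescue against the wild type, IGLC1 differed by -0.20 (adjusted p = 0.0962) and IGLL5 by -0.19 (adjusted p = 0.0764) on the log2 scale. Both passed with the batch as a block (adjusted p = 0.0392 for IGLC1 and 0.0244 for IGLL5), where members called numbered 3, and both rescue ranges lay wholly below those of the wild type. IGLC2 differed by 0.11 (adjusted p = 0.394) and IGLC3 by 0.12 (adjusted p = 0.313).

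JCHAIN, at chr4:70655541-70681817 on the minus strand, had 68412, 61446 and 55123 normalized counts in the rescue, 86303, 92389 and 84939.6 in the knockout, and 59699, 70634 and 66514.5 in the wild type. Every knockout value exceeded every value of the other groups, which overlapped. JCHAIN rose 1.34-fold in the knockout against the wild type (log2 difference 0.42, SE 0.08, adjusted p = 0.00661; higher in 3 of 3 batches) and fell 1.43-fold in the rescue against the knockout (log2 difference -0.51, SE 0.08, adjusted p = 0.00131). The first call was lost without batch 1 (adjusted p = 0.0554). In the rescue against the wild type the log2 difference was -0.09 (95% interval -0.28 to 0.09; adjusted p = 0.657).

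The regions from 250 bases before to 50 after the RefSeq start of the gene were read from RefSeq (GRCh38.p14), whose table held 3 of the 10 members: JCHAIN, VPREB3 and IGLL1. The RefSeq start of JCHAIN, chr4:70666508, lies inside the span that GENCODE gives the gene: 5 of its 6 GENCODE transcripts start within 500 bases of that position, and 1 starts 15309 bases upstream, at the end of the span given above. Those of JCHAIN (chr4:70666459-70666758, minus strand) and VPREB3 (chr22:23754376-23754675, minus strand) are shown because both genes passed a test. Capitals mark ATTTGCA, the first 7 letters of the octamer that POU2F factors bind at immunoglobulin promoters, and AACAAT, a core word of SOX factors, on either strand (the other strand of AACAAT reads ATTGTT).

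JCHAIN: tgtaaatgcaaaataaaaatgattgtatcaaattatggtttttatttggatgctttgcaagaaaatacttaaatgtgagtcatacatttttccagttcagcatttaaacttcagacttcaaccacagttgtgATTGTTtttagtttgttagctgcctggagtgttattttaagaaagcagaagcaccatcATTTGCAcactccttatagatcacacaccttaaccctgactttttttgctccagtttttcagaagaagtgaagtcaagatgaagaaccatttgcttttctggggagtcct
VPREB3: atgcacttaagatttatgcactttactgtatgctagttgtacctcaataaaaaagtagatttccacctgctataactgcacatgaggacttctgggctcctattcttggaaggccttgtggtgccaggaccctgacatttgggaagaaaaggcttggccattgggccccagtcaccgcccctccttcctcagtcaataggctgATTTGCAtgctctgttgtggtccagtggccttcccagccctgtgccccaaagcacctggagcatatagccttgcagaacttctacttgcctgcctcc

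The full octamer ATTTGCAT was present in VPREB3 and, on either strand, in 1.77% of the 35116 promoters in the table. Its 7-letter form, which every full octamer contains, was present in JCHAIN and VPREB3 and in 4.20% of all promoters. AACAAT was present once in JCHAIN, on the strand opposite to the gene, and in 10.1% of all promoters. IGLL1 held none of these words. A match is a description of the letters only.

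The table held 58 other rows of immunoglobulin segments or constant genes. Of these 46 averaged under 100 normalized counts and 19 passed the filter for testing. The 6 with the highest mean were IGLV1-51, IGHV1OR16-1, IGHV1-2, IGKJ1, IGHV7-40 and IGHJ6. IGLV1-51, a lambda variable segment at chr22:22322472-22322969 on the plus strand, was the most abundant, with 33660, 30840 and 30693 normalized counts in the rescue, 42101, 47444 and 43355 in the knockout, and 32907, 37165 and 33730.1 in the wild type. Its knockout values were all above those of the other groups. IGLV1-51 rose 1.28-fold in the knockout against the wild type (log2 difference 0.35, adjusted p = 0.00466, a call lost without batch 3) and fell 1.40-fold in the rescue against the knockout (log2 difference -0.47, adjusted p = 0.000449).

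None of the other 5 was called by limma in any of the 3 comparisons. IGKJ1 in the knockout against the wild type had the lowest adjusted p, 0.0673, and was the only 1 of these with an unadjusted p under 0.05. IGHV1-2, a heavy chain variable segment, averaged 1081 normalized counts in the rescue, 1156 in the knockout and 1159 in the wild type. IGHJ6, a joining segment, was listed at 0 in rescue replicate 3, knockout replicate 1 and wild type replicate 3, beside 723 to 1054 in the other libraries.

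Across the 9 libraries, and as a description only, the log2 values of IGLC1 correlated with those of IGLL5 at r = 1.00, of IGLV1-51 at 0.98 and of JCHAIN at 0.96. IGLC2 correlated with IGLC3 at 0.99 and with IGLC1 at -0.87. These points share the group means, the library depth and, within the lambda pairs, reads. Among 11187 tested genes with a proper symbol, those most like the lambda sum were IGLV1-51 (r = 0.990), RASSF3 (0.985) and FKBP11 (0.981). For JCHAIN they were TFAM (0.987), EIF2B5 (0.983) and CD27 (0.973), for IGHM LYL1 (0.964), ASMTL (0.961) and NFATC1 (0.960), and for VPREB3 PLK3 (0.964), HID1 (0.946) and COMTD1 (0.935). On the log2 scale CD27 (9.02 to 9.11) and HID1 (8.91 to 9.17) lay near the lowest deposited value, 8.5985.

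The genes that act on immunoglobulins were taken from 5 lists. Without the block, limma called 5.36% of all genes tested higher and 7.37% lower in the knockout against the wild type. In the rescue against the knockout it called 11.5% higher and 10.7% lower. In the rescue against the wild type it called 2.3% higher and 1.78% lower. Counts with the batch as a block are to be read against the shares of all genes tested that it called. These were 21.5% in the knockout against the wild type, 10.2% as higher and the rest as lower, 15.6% higher and 15.6% lower in the rescue against the knockout, and 4.27% higher and 3.79% lower in the rescue against the wild type. An unadjusted p under 0.05 was given to 26.6% of all genes tested in the knockout against the wild type, 34.3% in the rescue against the knockout and 16.2% in the rescue against the wild type. Among 6 tested partners of the antigen receptor, FCMR, the IgM Fc receptor, rose and FCRLA, a B cell protein that binds immunoglobulins inside the cell, fell in the knockout against the wild type. FCMR averaged 512 ± 115 normalized counts in the rescue, 519 ± 38.9 in the knockout and 265 ± 123 in the wild type (1.96-fold higher in the knockout than in the wild type, adjusted p = 0.0299). FCRLA averaged 9459 ± 940.4 in the rescue, 8097 ± 506 in the knockout and 10667 ± 998 in the wild type (1.32-fold lower in the knockout than in the wild type, adjusted p = 0.0115). The FCRLA call was lost without knockout replicate 3 or batch 3, and the FCMR call without knockout replicate 1, 2 or 3, wild type replicate 1 or 3, or batch 1 or 3. With the batch as a block 2 partners were called higher and 2 lower. Between the rescue and the knockout limma called 0 of 6, with 1 at an unadjusted p under 0.05 (34.3% of all genes) and 2 called higher with the block (15.6%). Between the rescue and the wild type it called 0 of 6, with 5 at an unadjusted p under 0.05 (16.2% of all genes), and with the block 3 were called higher (4.27%) and 1 lower (3.79%).

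Of 7 tested enzymes of rearrangement, class switch and mutation, RAG2 alone was called, in both comparisons with the rescue. In the knockout against the wild type limma called 0 of 7, with 0 at an unadjusted p under 0.05 and 0 with the block, and in the rescue against the knockout the block called 2 higher (15.6% of all genes). RAG2 is the partner of RAG1 in the recombinase that joins variable, diversity and joining segments. It had 141, 62.3 and 112 normalized counts in the rescue, 0 in each knockout library, and 2.58, 0 and 0 in the wild type. It was at least 34.3-fold higher in the rescue than in the knockout, taking 3 reads per library as the floor. RAG2 reached the CPM of 1 that the filter asks for in 3 rescue libraries and in 0 of the others, so it was tested only because it was high in the rescue. Its calls are therefore no independent test, and its values stand as a description. RAG1 was below the filter, with 18.1, 45.6 and 47.4 normalized counts in the rescue, 2.29, 9.88 and 19.3 in the knockout, and 3.11, 1.52 and 3.58 in the wild type. The genes lie next to each other on chromosome 11 and overlap in the annotation, so reads from one and the other strand cannot be told apart where a library kit did not mark strand.

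Of 20 transcription factors that act on the immunoglobulin loci, 4 fell and 0 rose in the knockout against the wild type. Limma called 7.37% of all genes tested lower and 5.36% higher there. The median log2 difference was -0.15, against 0.00 over all genes tested. With the batch as a block, which called 21.5% of all genes tested, 8 fell and 1 rose. IRF8 averaged 568 ± 55.5 normalized counts in the rescue, 279 ± 49.0 in the knockout and 659 ± 77.3 in the wild type, a 2.36-fold fall in the knockout against the wild type (adjusted p = 0.000233). POU2AF1, the B cell coactivator of the octamer factors, averaged 3735 ± 146 in the rescue, 2881 ± 48.4 in the knockout and 3670.3 ± 366 in the wild type, a 1.27-fold fall (adjusted p = 0.0109). The calls of IRF4 (1.27-fold lower, adjusted p = 0.0462) and TCF3 (1.13-fold lower, adjusted p = 0.0479) lay near the threshold and were lost in 11 and 14 of 21 alternatives, and that of POU2AF1 was lost without batch 1 or batch 3.

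In the rescue against the knockout 6 of the 20 factors rose and 1 fell (median log2 difference 0.03, against -0.01 over all genes tested). Limma called 11.5% of all genes tested higher and 10.7% lower there. IRF8 rose 2.03-fold (adjusted p = 0.000699), POU2AF1 1.30-fold (adjusted p = 0.00459) and TCF4, an E protein, 1.27-fold (adjusted p = 0.0225). XBP1, which drives the secretory programme of plasma cells, averaged 2463 ± 170 normalized counts in the rescue, 3735 ± 186 in the knockout and 3233 ± 153 in the wild type. XBP1 fell 1.52-fold in the rescue against the knockout (adjusted p = 0.000122) and 1.31-fold in the rescue against the wild type (adjusted p = 0.00986). It was the single factor called in the rescue against the wild type, where the block called 2 higher and 4 lower (8.06% of all genes tested). The POU2AF1 call was lost without batch 1 or 3, that of TCF4 also without rescue replicate 1 or 3, and that of XBP1 against the wild type without rescue replicate 2 or 3 or batch 1, 2 or 3.

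Of 8 genes of immunoglobulin mRNA processing, ELL2 alone rose in the knockout against the wild type and 0 fell (1 higher and 1 lower with the block, which called 21.5% of all genes). ELL2 is an elongation factor that favours the secretory form of heavy chain mRNA in plasma cells. It had 569, 723 and 684 normalized counts in the rescue, 1873, 1580.4 and 1828 in the knockout, and 187, 148 and 285 in the wild type. The groups stood far apart, with the rescue between the others. ELL2 was 8.51-fold higher in the knockout than in the wild type (adjusted p = 7.67e-07), 2.67-fold lower in the rescue than in the knockout (adjusted p = 3.04e-05) and 3.19-fold higher in the rescue than in the wild type (adjusted p = 0.000563), calls that held under all 21 alternatives. HNRNPLL, a splicing regulator, fell in the rescue against the knockout (1.41-fold, adjusted p = 0.0469), a call lost in 10 of 21 alternatives. With the block 3 of the 8 were called lower and 1 higher in that comparison, where the block called 31.2% of all genes tested. The table gives 1 value per gene, so the secreted and membrane forms of IGHM were not separated.

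Of 16 genes that fold and assemble immunoglobulins in the endoplasmic reticulum, 3 rose and 0 fell in the knockout against the wild type. Limma called 5.36% of all genes tested higher and 7.37% lower there. The median log2 difference was 0.13, against 0.00 over all genes tested. With the batch as a block 8 rose, where it called 10.2% of all genes higher. FKBP11, a prolyl isomerase abundant in secretory cells, had 2318, 2103 and 1972 normalized counts in the rescue, 4099, 4200 and 3736 in the knockout, and 2648, 2985 and 2400.4 in the wild type. It rose 1.50-fold in the knockout against the wild type (adjusted p = 0.00111). The chaperone HSP90B1 rose 1.31-fold (adjusted p = 0.00224) and HSPA5, which binds free heavy chains, 1.22-fold (adjusted p = 0.0377), a call of HSPA5 lost in 8 of 21 alternatives.

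In the rescue against the knockout 9 of the 16 fell and 1 rose (median log2 difference -0.20, against -0.01 over all genes tested). Limma called 10.7% of all genes tested lower and 11.5% higher there. FKBP11 fell 1.88-fold (adjusted p = 3.61e-05), HSP90B1 1.39-fold (adjusted p = 0.000326), the lectin chaperone CANX 1.34-fold (adjusted p = 0.000796) and P4HB, a disulfide isomerase, by a log2 difference of -0.29 (adjusted p = 0.00370). The call of P4HB was lost without batch 1, while those of FKBP11, HSP90B1 and CANX held under all 21 alternatives. Each of the other genes that fell lost its call in 1 to 10 of 21 alternatives, and the gene that rose lost its call in 8. Between the rescue and the wild type limma called 0 of the 16, with 3 at an unadjusted p under 0.05 (16.2% of all genes) and 2 lower with the block (3.79%).

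**Figure D5:**
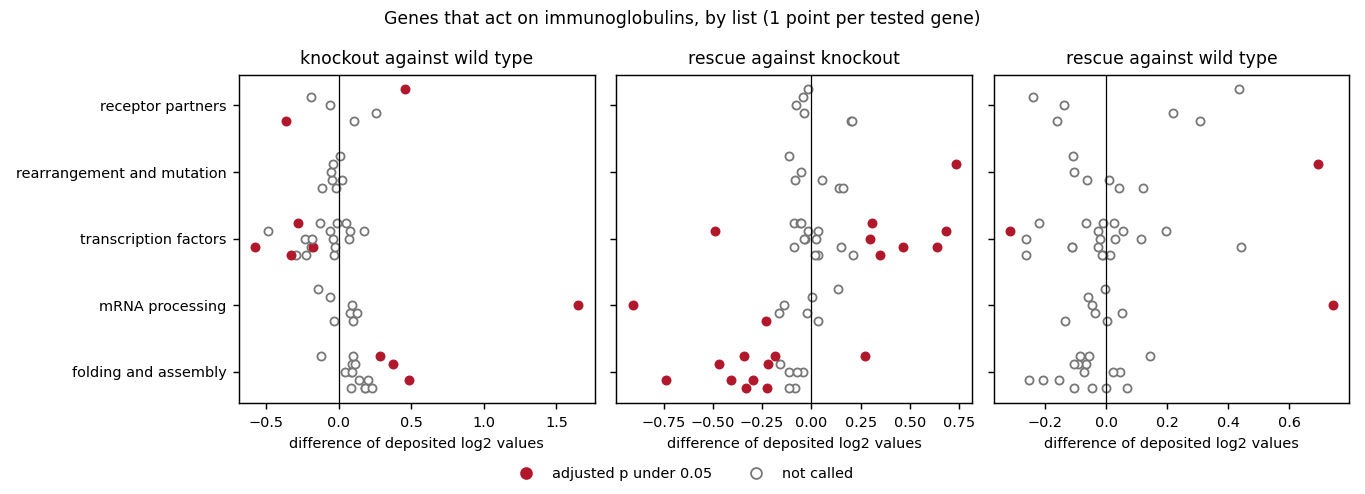
Log2 differences of the tested genes of the 5 lists (1 point per gene, spread vertically for legibility), with filled points at an adjusted p under 0.05; horizontal scales differ between panels. ELL2 lies at 1.65 in the knockout against the wild type, and folding genes lie mostly above 0 there and below 0 in the rescue against the knockout.

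Markers of other cell types were read in the same libraries, and their part in the immunoglobulin differences was not tested. The 6 plasma cell markers (SDC1, TNFRSF17, PRDM1, IRF4, XBP1 and MZB1) summed to 23227 to 25569 normalized counts in the rescue, 22257 to 24570.5 in the knockout and 24011 to 25594 in the wild type. These ranges overlapped, but IRF4 made up the largest part of the sum and single markers moved in opposite directions. IRF4 rose 1.29-fold in the rescue against the knockout (adjusted p = 0.0266), while XBP1 fell, as given above, and so did TNFRSF17, the receptor BCMA (1.31-fold, adjusted p = 0.0484). The call of IRF4 was lost in 6 of 21 alternatives (without batch 1 or 3, without knockout replicate 1 or 3 and without rescue replicate 2 or 3) and that of TNFRSF17 in 11. The groups did not overlap for 5 of the 6 markers there, as for 41.8% of all genes tested. In the knockout against the wild type IRF4 alone was called, as lower, and in the rescue against the wild type XBP1 alone, as lower. Of the pre-B markers besides IGLL1 and the RAG genes, DNTT, MME and CD34 stayed at or under 13.9 normalized counts.

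The 10 T or NK cell markers summed to 1280 to 1464 normalized counts in the rescue, 1815 to 1853 in the knockout and 710 to 818 in the wild type, with no overlap between any of the groups. Of the 7 tested, CD4, PRF1 and CD3E rose in the knockout against the wild type, where limma called 5.36% of all genes tested higher. NKG7 was called higher there as well, a call limited by the filter as given below. CD3G and KLRD1 were higher there without a call, and TRAC was lower without a call. CD4, a coreceptor of helper T cells, averaged 362 in the rescue, 846 in the knockout and 179 in the wild type (4.71-fold higher in the knockout than in the wild type, adjusted p = 5.15e-07). PRF1, the pore protein of killer cells, averaged 422 in the rescue, 314 in the knockout and 95.8 in the wild type (3.27-fold, adjusted p = 0.000464). CD3E, a chain of the T cell receptor complex, averaged 79.9 in the rescue, 83.2 in the knockout and 37.0 in the wild type (2.25-fold, adjusted p = 0.00871). NKG7 averaged 28.5 in the rescue, 43.0 in the knockout and 12.6 in the wild type. It reached the CPM of the filter in 3 knockout libraries, 1 rescue library and 0 wild type libraries. NKG7 was thus tested only because it was high in the knockout. Its call, which was lost without batch 1 or 3, is therefore no independent test, and its values stand as a description. CD4, PRF1 and CD3E rose in the rescue against the wild type as well, and CD4 fell and TRAC was called higher in the rescue against the knockout. TRAC passed the filter through 2 rescue libraries and 1 wild type library, so its call against the knockout is no independent test. That call was lost in 6 of 20 alternatives, among them those without rescue replicate 2 and without batch 1 or 3. TRAC averaged 52.6 in the rescue (27.3, 94.6 and 35.9 in its libraries), 4.27 in the knockout and 24.3 in the wild type. For TRAC in the knockout against the wild type the limma adjusted p was 0.249, and 0.0106 with the batch as a block. The calls of CD4 and PRF1 against the wild type held under all 21 alternatives, except that of CD4 in the rescue without batch 3, while CD3E was lost in 2 of 20 in the knockout (without batch 1 or 3) and in 8 of 20 in the rescue. CD3D, CD8A and TRBC2, which were below the filter, stayed at or under 12.4 in every library. All 3 had their lowest or joint lowest group mean in the knockout, CD8A with 4.19 in the rescue, 1.49 in the knockout and 11.6 in the wild type.

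The epithelial and stromal markers summed to 21592 to 25458 normalized counts in the rescue, 26336 to 32453 in the knockout and 22895 to 26446 in the wild type. The knockout lay above the rescue without overlap, as it did for JCHAIN and the lambda sum, and it overlapped the wild type. Nearly all of that sum was VIM, an intermediate filament gene that lymphocytes express too, which averaged 23099 in the rescue, 28051 in the knockout and 23029 in the wild type. Of the 3 tested, 2 fell in the rescue against the knockout, where limma called 10.7% of all genes tested lower. These were VIM (1.21-fold, adjusted p = 0.0468) and COL1A1 (1.44-fold, adjusted p = 0.0244). The calls were lost in 11 and 6 of 21 alternatives, among them fits without single rescue or knockout libraries. EPCAM, which defines epithelial cells, had 31.4 to 63.0 and KRT8 3.22 to 23.8 over the 9 libraries, with no row for KRT18. Myeloid markers summed to 44.6 to 56.5 normalized counts in the rescue, 44.0 to 47.9 in the knockout and 15.6 to 22.6 in the wild type, with no row for MPO or FCGR3A, and the 1 erythroid marker with a row stayed at or under 18.6.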

How the data were processed

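RNA-seq of 9 libraries (3 groups of 3) was used as 1 deposited table of log2 values for 16586 genes. Per the submitters' processing notes kallisto 0.46.1, DESeq2 1.24.0, Trimmomatic 0.40, FastQC 0.11.9 and R 4.3.2 were used on build GRCh38.p13, with no role stated for any. Per the labels, libraries came from either of a pair of TruSeq kits and had either paired or single-end reads, and the kit and layout of each library are not known here. The table's name calls the values log CPM, but they behave as variance-stabilized log2 values as deposited, with 1 lowest value (8.5985) in all libraries. The transform was inverted with 2 to that value (388) as its constant, which gave normalized counts. Among low values of genes with a single transcript, 87.5% to 98.9% then lay within 0.05 of a whole multiple of 1 read (10% by chance), which gave the estimated depth. The floor of 3 reads covers counting error only, and the 95% intervals, from limma, cover the spread between libraries.

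Tests had been planned on log CPM and were run on the deposited log2 values instead, since the file held those. limma 3.58.1 in R 4.3.3 estimated 3 group means and a trended variance for the 11542 genes that reached a CPM of 1 in 3 or more libraries. The lambda sum replaced its 4 rows in the table before fitting. The script was tested on simulated counts drawn without a batch effect, and no value above comes from that test. Libraries of the same number deviated together (r of 0.187 to 0.510 for every pair, -0.387 to 0.159 otherwise), and the labels give the number as a batch, so the fit with the batch as a block is a paired alternative. Other alternatives changed the filter, the scale, the normalization, the libraries fitted and the treatment of the lambda rows.

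All members were named. In each list and comparison up to 4 called genes with the smallest adjusted p were named, and the 6 other immunoglobulin rows with the highest mean. Members, lists and tests were chosen with earlier results of these data known. Genome positions are from GENCODE release 29, and protein sequences were not used here. Some items are not reported here.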

Additional observations from a re-analysis of the deposited data

How the results depend on the processing

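Of the alternatives, adding the replicate block raised the number of all genes called to 2481 in the knockout against the wild type (1470 without it) and to 930 in the rescue against the wild type (470 without it), where members called became 3. With only the groups compared in the fit, members called became 0 in the rescue against the wild type, and the lambda sum in the knockout against the wild type kept its log2 difference of 0.23 but not its call. With the lambda rows replaced by 2 sums (chosen after seeing the data), members called became 3 in the knockout against the wild type and 3 in the rescue against the knockout, and with 1 sum they became 2 and 2, because there are fewer rows. Leaving out a library or a batch gave 574 to 1395 genes called in the knockout against the wild type, 993 to 2970 in the rescue against the knockout and 111 to 427 in the rescue against the wild type. Members called then numbered 2 to 6, 4 to 6 and 0 to 1 in the same order of comparisons. The lambda sum in the knockout against the wild type ranged from 0.19 to 0.26. The calls of IGLC1 and IGLL5 in both comparisons with the knockout held under all 19 alternatives run for them, and those of JCHAIN and IGLC2 in the rescue against the knockout under all 21 and 19. Signs changed only for differences that were never called. These were IGHM in the rescue against the knockout (0.0108 with quantile normalization; -0.045 to 0.0156 on leaving out), IGHD (-0.013 with median centring in the rescue against the knockout; on leaving out -0.0798 to 0.1232 in the knockout against the wild type, -0.0992 to 0.1051 in the rescue against the knockout and -0.0354 to 0.0999 in the rescue against the wild type), IGKC in the rescue against the wild type (-0.0815 to 0.1002) and IGLL1 in the rescue against the wild type (0.0083 with log2(CPM + 1), 0.0273 with quantile normalization, -0.1268 to 0.0867 on leaving out). The division of reads among lambda genes was made before deposit and limits every single lambda row.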
